A study of Mus musculus with 16 samples.

Results

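The comparison described here sets PRC2-null mouse embryonic stem cells (ESCs) against wild-type ESCs across all genes. It covers 8 of the 16 libraries of the series, 4 per group, and all 20633 entries of the authors' differential expression table for these groups, where an entry is a RefSeq transcript of a nonredundant gene set. Wild-type ESCs were untreated cells of the Ring1a-/-;Ring1bfl/fl line at passage 25 to 35. PRC2-null ESCs were untreated Eed-/-;Ring1a-/-;Ring1bfl/fl cells (PcG DKO) of clone B4 at passage 30 to 40. Both groups therefore lacked RING1A, and neither was given 4-hydroxytamoxifen, so RING1B was present in both. The cells were grown on gelatin without feeder cells, with serum and LIF. RNA was taken from nuclei, depleted of ribosomal RNA and sequenced as paired ends. Where they are set beside a result, PRC1-null ESCs were the wild-type line after 72 h in 800 nM 4-hydroxytamoxifen, which removes RING1B, and PRC1/2-null ESCs were clone B4 after the same treatment. Both are compared with the same 4 wild-type libraries, so these comparisons are not independent of the main one.

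Polycomb repressive complex 2 (PRC2) places methyl groups on lysine 27 of histone H3, and EED is the subunit that binds the methylated histone and holds the enzyme active. Without EED the complex falls apart and the mark is lost. PRC1, built around RING1A or RING1B, puts ubiquitin on histone H2A, and its CBX subunits bind the mark that PRC2 leaves. In ESCs the 2 complexes sit mainly at CpG-rich promoters of developmental genes, most of which are silent or hardly transcribed. Constitutive loss differs from acute removal in that the cells have lived without the complex for many passages. Clone B4 grew from a single colony after CRISPR deletion of Eed exons and puromycin selection, so loss of Eed, the history of the clone and its later passage cannot be told apart in this comparison.

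The tables give no value per library. Each gene has the authors' mean normalized read count over all 16 libraries, a log2 fold change that DESeq2 shrinks toward 0 where counts are low, its standard error (SE), and p-values from the Wald test of DESeq2. A gene was called higher or lower at an adjusted p under 0.05 and a fold change over 2, the limits the study used. The level of a group, in normalized read counts, was worked out from the mean and the unshrunken fold changes of the 3 comparisons with wild type. It stands for the mean of 4 libraries and carries no error of its own, so no overlap between libraries can be judged. The study's methods call the 4 libraries of a group biological replicates, and the labels do not say which culture each came from.

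The sequences before the start of 6 strongly moved genes are shown as the DNA from which their transcription begins. They are the 3 largest rises and the 3 largest falls, among genes with a RefSeq start in the sequences used and a mean of at least 100 counts, whose 250 bases before a RefSeq transcription start overlap no annotated gene. Starts shared with a neighbouring transcript, frequent at CpG-rich promoters, were thereby left out. Sequences are from RefSeq on build GRCm38.p6, written in the direction of the gene from 5′ to 3′ with every CpG in capitals. Mal (chr2:127656696-127656945, minus strand), Dnah11 (chr12:118199044-118199293, minus strand), which encodes a motor protein of cilia, and Dmkn (chr7:30763506-30763755, plus strand), a secreted protein of the epidermis, were higher in PRC2-null ESCs. Meg3 (chr12:109540746-109540995, plus strand), Halr1 (chr6:52102699-52102948, plus strand) and Gna14 (chr19:16435417-16435666, plus strand) were lower.
Mal: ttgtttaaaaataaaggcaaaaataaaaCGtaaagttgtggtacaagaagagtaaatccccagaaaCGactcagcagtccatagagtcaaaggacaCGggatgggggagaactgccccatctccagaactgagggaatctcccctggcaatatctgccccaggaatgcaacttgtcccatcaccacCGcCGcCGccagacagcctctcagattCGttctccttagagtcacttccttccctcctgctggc
Dnah11: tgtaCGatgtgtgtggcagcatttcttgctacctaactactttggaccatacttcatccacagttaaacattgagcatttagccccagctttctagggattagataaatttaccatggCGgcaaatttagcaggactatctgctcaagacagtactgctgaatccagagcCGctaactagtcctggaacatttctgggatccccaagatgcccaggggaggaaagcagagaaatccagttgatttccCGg
Dmkn: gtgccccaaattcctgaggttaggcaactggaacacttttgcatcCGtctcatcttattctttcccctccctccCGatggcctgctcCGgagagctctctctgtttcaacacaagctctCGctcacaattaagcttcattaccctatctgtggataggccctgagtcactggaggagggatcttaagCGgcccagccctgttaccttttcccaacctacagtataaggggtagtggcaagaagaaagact
Meg3: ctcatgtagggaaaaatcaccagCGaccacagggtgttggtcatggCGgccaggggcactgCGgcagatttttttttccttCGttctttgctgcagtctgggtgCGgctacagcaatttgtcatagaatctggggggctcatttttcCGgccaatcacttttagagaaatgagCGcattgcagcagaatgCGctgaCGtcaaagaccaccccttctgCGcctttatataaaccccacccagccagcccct
Halr1: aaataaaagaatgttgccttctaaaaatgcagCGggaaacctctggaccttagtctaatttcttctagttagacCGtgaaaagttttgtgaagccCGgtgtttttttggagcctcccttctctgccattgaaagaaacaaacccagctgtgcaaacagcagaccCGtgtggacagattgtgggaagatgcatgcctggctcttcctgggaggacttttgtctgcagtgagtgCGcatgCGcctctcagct
Gna14: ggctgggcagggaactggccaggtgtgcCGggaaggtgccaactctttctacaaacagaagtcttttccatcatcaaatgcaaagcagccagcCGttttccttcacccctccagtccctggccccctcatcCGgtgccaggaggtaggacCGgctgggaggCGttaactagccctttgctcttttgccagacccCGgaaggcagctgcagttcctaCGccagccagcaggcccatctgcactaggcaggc
Among the rises, the Mal sequence holds 7 CpGs, that of Dnah11 4 and that of Dmkn 5. Among the falls, Meg3 has 10, Halr1 6 and Gna14 7. The median over all 32851 RefSeq windows of this length was 6 CpGs, and 37.8% held at least as many as Meg3. Dnah11 went from 6.80 to 203 counts (4.27 ± 0.40) and Dmkn from 14.2 to 263 (3.91 ± 0.32), and the other members are described below. The CpG counts describe the windows shown and not promoters of called genes in general.

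Of 18588 tested entries, 2902 (15.6%) were higher and 986 (5.30%) lower in PRC2-null ESCs. Increases made up 74.6% of these calls. Without the fold threshold 5473 entries were higher and 4818 lower, so that increases made up 53.2%. Counting 1 entry per gene, 2620 of 17330 genes (15.1%) rose and 900 (5.19%) fell, and the median log2 fold change of all tested genes was 0.04. The 2 directions came from different parts of the expression range. Of 3570 genes with a wild-type level under 10 normalized counts, 976 (27.3%) rose and 40 (1.12%) fell. Between 10 and 100 counts, 29.7% of 3308 genes rose and 7.74% fell. From 100 to 1000 counts, 9.45% of 6029 genes rose and 5.57% fell. Of 4423 genes at 1000 counts or more, 93 (2.10%) rose and 268 (6.06%) fell. Increases therefore outnumbered decreases among silent and weakly transcribed genes, and decreases outnumbered increases among strongly transcribed ones. Level and fold change share the wild-type libraries, so a chance low value in wild type moves a gene toward both a lower bin and a higher fold change. Genes near 0 counts also have little room to fall, and the median SE was 0.60 at a mean under 10. Few genes of the lowest bin could therefore be called lower, and its small share of decreases partly reflects this limit.

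**Figure D1:**
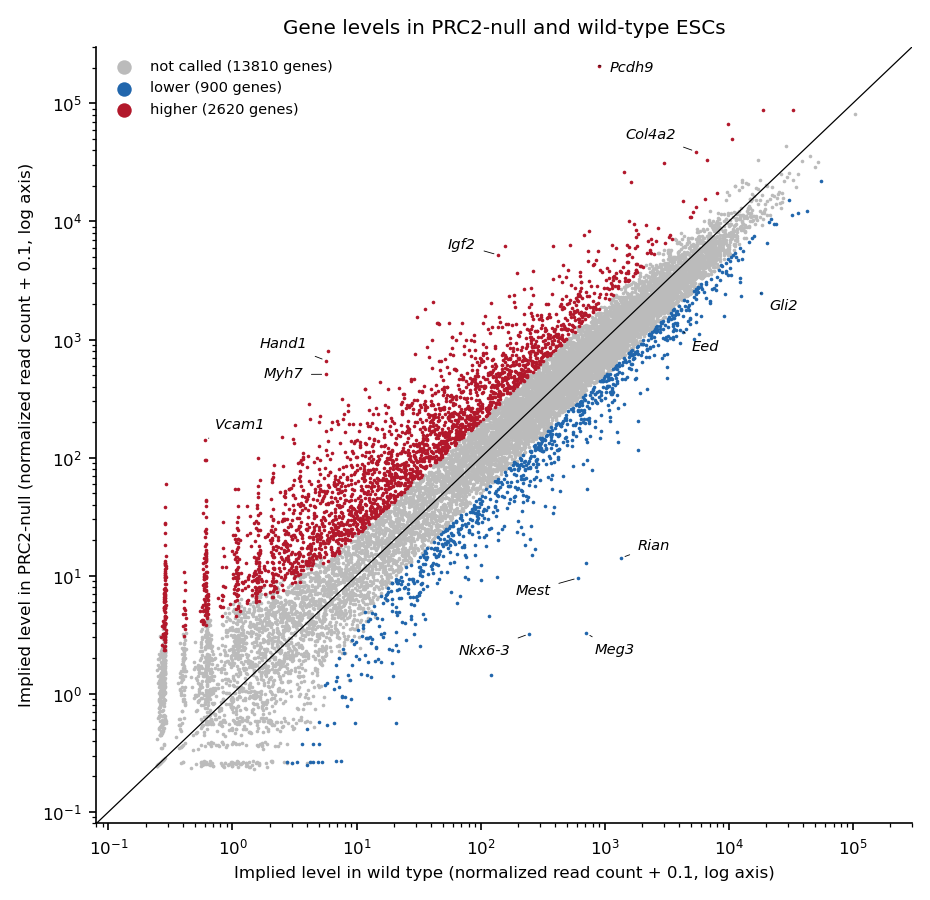
Level in PRC2-null against level in wild type for 17330 tested genes, in normalized read counts plus 0.1 on log axes, with the line of equal levels. The 2620 genes called higher spread mainly over low wild-type levels, the 900 called lower over middle and high ones.

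**Figure D2:**
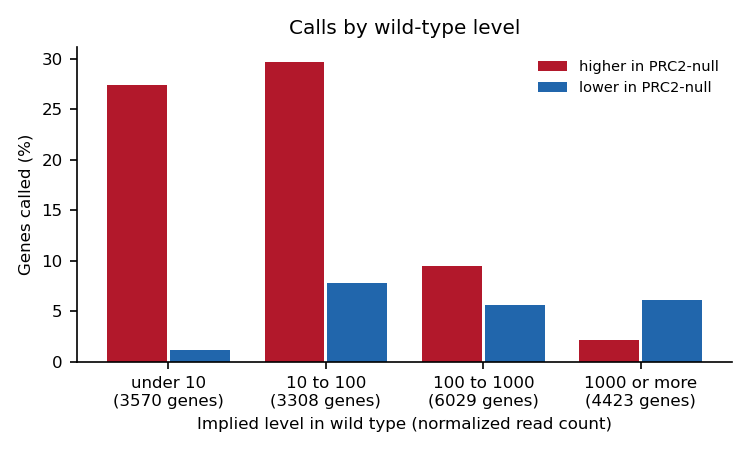
Share of tested genes called higher or lower, in percent, by wild-type level in normalized read counts. The share called higher drops from 27.3% under 10 counts to 2.10% at 1000 counts or more.

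Genes that went from off to on, defined as under 10 counts in wild type and at least 100 in PRC2-null ESCs, numbered 43. There were 12 with the lower limit at 5 counts and 145 with the upper limit at 50. The largest by fold change were Hand1, a transcription factor of trophoblast and heart, and Vcam1, an adhesion molecule for white blood cells. Vcam1 had a level of 0.497 in wild type and 142 in PRC2-null ESCs. Its log2 fold change was 6.18 ± 0.49 (SE), and at so low a wild-type level the size of this value depends on that shrinkage, as for other genes under about 1 count. Myh7, the slow myosin heavy chain of heart and muscle, went from 5.55 to 508 (log2 fold change 5.98 ± 0.34). Igfbp5, which binds insulin-like growth factors, went from 5.79 to 798 (5.80 ± 0.47), and Col6a1, a chain of collagen VI, from 3.07 to 187 (5.17 ± 0.39). Wfdc1, a secreted protein with a protease inhibitor fold, went from 2.42 to 149, and Mal, a membrane protein of myelin and epithelia, from 4.14 to 211. The X-linked gene Plac1, active in the placenta, went from 4.06 to 286. In PRC1-null ESCs Vcam1 stood at 0.511 and Col6a1 at 8.36, while Igfbp5 reached 46.1.

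The opposite step, from at least 100 counts to under 10, was made by 7 genes, by 4 with the lower limit at 5 counts and by 12 with the upper limit at 50. Meg3, Mirg and Mest are imprinted and are described with that group below. Nkx6-3, a homeobox gene, fell from 247 to 3.13 (log2 fold change -5.77 ± 0.35), and Nos3, the nitric oxide synthase of endothelium, from 135 to 9.66 (-3.63 ± 0.26). Kis2, a noncoding RNA on the X chromosome, fell from 118 to 4.42 and was at 12.4 in PRC1-null ESCs. The antisense RNA Nphs1os fell from 101 to 9.13, and the kidney gene on the opposite strand, Nphs1, from 1853 to 115 (-3.58 ± 0.41). The 2 overlap, and whether the counting used strand is not given in the sources used here.

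Further genes were among the 15 largest rises at a mean of at least 100 counts. Ptger3, a prostaglandin E receptor, went from 41.3 to 2067 (5.46 ± 0.23) and Plcl1, a phospholipase-like signalling protein, from 30.8 to 1554 (5.43 ± 0.25). Robo2, the receptor for Slit guidance cues, went from 35.5 to 1801 (5.27 ± 0.32), and Flt1, a VEGF receptor, from 157 to 6195 (5.06 ± 0.27). Fst, the activin antagonist follistatin, went from 45.7 to 1341 (4.66 ± 0.27). Each of these 5 stood at least 10-fold above wild type. Prss12, a secreted serine protease, rose by 4.94 ± 0.35, Aox3, an aldehyde oxidase, by 4.62 ± 0.34, and Pax3, a regulator of neural crest and muscle precursors, by 4.61 ± 0.22 on the log2 scale. Pax3 was the member of this set that was higher in PRC1-null (815) than in PRC2-null ESCs (434) by level.

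The largest falls at this mean level began with noncoding RNAs. After Meg3 and Rian came Halr1, a noncoding RNA beside the HoxA cluster, from 709 to 12.6 (-5.64 ± 0.23). It stood at 373 in PRC1-null ESCs. The growth factor gene Fgf1 fell from 259 to 15.0 (-3.92 ± 0.27) and Inhbb, which encodes the beta B chain of activin and inhibin, from 1291 to 136 (-3.18 ± 0.18). Falls of like size were seen for Unc13a, which primes synaptic vesicles (-3.22 ± 0.26), the G protein subunit Gna14 (-3.20 ± 0.26), the synaptic adhesion molecule Igsf21 (-3.12 ± 0.16), Galnt9, which starts sugar chains on proteins (-2.98 ± 0.20), and the membrane receptor Plxdc1 (-2.85 ± 0.22). A gene for an activin chain and the gene for its antagonist Fst thus moved in opposite directions.

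Pcdh9, a protocadherin of the nervous system, had the largest fold change of all genes with a mean of at least 100 counts. Its level went from 897 in wild type to 208204 in PRC2-null ESCs (log2 fold change 7.49 ± 0.27, adjusted p = 9.39e-161, DESeq2 Wald test). It was at 847 in PRC1-null and at 179249 in PRC1/2-null ESCs. The high value was thus shared by both groups made from clone B4 and was seen in neither group of the parent line. This 1 gene took 1.13% of the summed levels of all genes in PRC2-null ESCs and 0.00451% in wild type, a share that grows with the length of the gene. The gene lies on chr14:93013700-93892834 of mm10, spans 879 kb and has no other tested gene within 2 Mb on either side. The nearest tested gene, Klhl1, lies 2212 kb away and was not called (7.42 against 9.87 counts, adjusted p = 0.522). Dach1, 3894 kb away, went from 158 to 475 (1.55 ± 0.17) and Pcdh20, 4542 kb away on the other side, from 4.66 to 43.3 (2.87 ± 0.34). No tested neighbour changed by a like amount. Whether the DNA around Pcdh9 is altered in clone B4 was not tested.

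Genes of chromosome 11 were shifted upward as a body. Among genes with a mean of at least 100 counts, the median log2 fold change of its 926 genes was 0.38, against -0.09 for the 10213 genes of other chromosomes. The other chromosomes had medians from -0.21 for chromosome 17 to 0.04 for chromosome 14. On chromosome 11, 78.8% of genes were above 0, against 43.5% elsewhere. The shift was smaller than the fold threshold for most genes, so 16.6% of chromosome 11 genes were called higher and 2.27% lower, against 10.8% and 5.01% elsewhere. Without the fold threshold, 63.0% were higher and 9.83% lower, against 27.2% and 37.5% elsewhere. In 12 windows of 10 Mb along chromosome 11, each with at least 20 genes, the median lay between 0.26 and 0.50. Elsewhere, 8 windows had a median above the lowest of chromosome 11. The highest of them, 50 to 60 Mb of the X chromosome, had 0.67 over 23 genes, more than any window of chromosome 11. A window of chromosome 6, from 20 to 30 Mb, had 0.48. The median of chromosome 11 in PRC1-null ESCs was -0.07 and in PRC1/2-null ESCs 0.38.

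The 6 tested genes of chromosome 11 with the highest mean counts did not all follow the shift. Sparc, a collagen-binding matrix protein, rose from 6635 to 33182 (2.26 ± 0.21) and Canx, a chaperone of the endoplasmic reticulum, had a log2 fold change of 0.51 ± 0.10. Usp34, a deubiquitinase, had 0.11 ± 0.06 and Tns3, a focal adhesion protein, -0.15 ± 0.13. Ranbp17 (-0.61 ± 0.10) and Msi2, an RNA-binding protein (-0.63 ± 0.12), were below 0. With chromosome 11 genes lowered by the excess of their median, Epop, Cbx2 and Nefh lost their calls among the genes named here. The copy number of chromosome 11 was not tested.

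**Figure D3:**
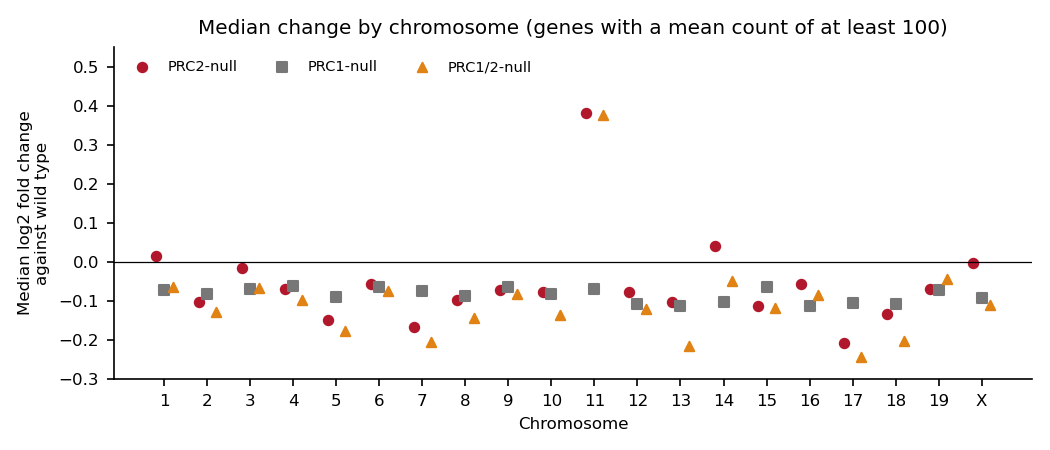
Median log2 fold change against wild type by chromosome for PRC2-null (circles), PRC1-null (squares) and PRC1/2-null ESCs (triangles), genes with a mean of at least 100 counts. Chromosome 11 stands at 0.38 in both groups made from clone B4 and at -0.07 in PRC1-null ESCs.

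Eed, the targeted gene, checks the labels. Its level was 4315 in wild type and 1161 in PRC2-null ESCs, with 4413 in PRC1-null ESCs and 1001 after tamoxifen treatment of clone B4. The log2 fold change in PRC2-null ESCs was -1.89 ± 0.09. The deletion takes out some exons, and the entry also counts reads from the exons that are left. Among the other PRC2 genes, Mtf2, an accessory subunit that guides PRC2 to CpG-rich DNA, fell from 12963 to 5660.1 (-1.19 ± 0.09). Epop, another accessory subunit, rose from 1045 to 2743 (1.35 ± 0.22) and lies on chromosome 11. The catalytic subunit Ezh2 had a log2 fold change of -0.58 ± 0.08, its paralog Ezh1 0.21 ± 0.11 and the core subunit Suz12 0.04 ± 0.07. Jarid2 (-0.77 ± 0.15), Aebp2 (-0.48 ± 0.09), Phf1 (-0.39 ± 0.15), Phf19 (-0.88 ± 0.15), Rbbp4 (-0.59 ± 0.06), Rbbp7 (0.33 ± 0.11) and Lcor (0.92 ± 0.11) did not pass the fold threshold. In all, 1 of 13 PRC2 genes rose (7.69%) and 2 fell (15.4%), with a median of -0.48, against 15.1% and 5.19% of all tested genes.

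Of 11 genes of canonical PRC1, the form that reads the PRC2 mark, 5 rose (45.5%) and 2 fell (18.2%), against the same shares of all genes. Cbx8, which encodes a chromodomain subunit, went from 3.48 to 95.8 (4.23 ± 0.34). Cbx2, of the same kind, went from 229 to 611 (1.40 ± 0.11), and Cbx7, the main CBX gene of ESCs, fell from 2511 to 1174 (-1.09 ± 0.12). Cbx2 and Cbx8 lie on chromosome 11. Bmi1, which encodes a RING finger partner of RING1B, rose from 132 to 482 (1.84 ± 0.15). Its paralog Pcgf2 had a log2 fold change of -0.39 ± 0.11. Scml2 rose by 2.41 ± 0.19 and Phc1, a polyhomeotic subunit, fell from 5457 to 1657 (-1.70 ± 0.13). Phc2 (0.39 ± 0.10), Phc3 (-0.32 ± 0.07) and Scmh1 (0.02 ± 0.08) were not called.

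Variant PRC1 does not need the PRC2 mark, and 3 of its 21 genes rose (14.3%, against 15.1% of all genes) while none fell. Pcgf5 rose from 517 to 2046 (1.96 ± 0.14), Bcorl1 from 256 to 798 (1.62 ± 0.13) and Bcor from 1135 to 2879.7 (1.32 ± 0.16). These are a RING finger subunit and a pair of related corepressors. The remaining members were not called. Rnf2, which encodes RING1B, had -0.26 ± 0.09, and Ring1, whose product is absent from both groups, had 28.8 counts in wild type and 19.5 in PRC2-null ESCs. Kdm2b, which carries variant PRC1 to CpG islands, had -0.73 ± 0.11, Rybp -0.43 ± 0.09, Yaf2 0.74 ± 0.10, Pcgf1 0.00 ± 0.21, Pcgf3 -0.04 ± 0.07 and Pcgf6 -0.60 ± 0.10. L3mbtl2 had -0.14 ± 0.13, Mga -0.62 ± 0.05, Max -0.18 ± 0.10, E2f6 0.85 ± 0.10, Cbx3 -0.81 ± 0.10 and Usp7 -0.54 ± 0.06. Fbrs (0.24 ± 0.11), Fbrsl1 (-0.53 ± 0.07), Skp1 (0.62 ± 0.11) and Csnk2a1 (-0.43 ± 0.06) complete the list.

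Among the H3K27 demethylases and acetyltransferases, 1 of 13 rose and 1 fell (7.69% each, against 15.1% and 5.19% of all genes). Among them the Y-linked demethylase relative Uty went from 37.6 to 233 (2.52 ± 0.26) and the histone demethylase relative Jmjd1c fell from 22037 to 10510.1 (-1.06 ± 0.10). Of 13 genes for DNA methylation and its removal, 2 rose and 2 fell (15.4% each, against the same shares). Dnmt3l, the cofactor of the de novo methyltransferases, rose from 1446 to 3107 (1.08 ± 0.19) and was at 1446 in PRC1-null ESCs too. The 5-methylcytosine oxidase Tet3 rose from 763 to 1877 (1.28 ± 0.14), opposite to its relatives Tet1 (-1.61 ± 0.18) and Tet2 (-1.30 ± 0.15).

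**Figure D4:**
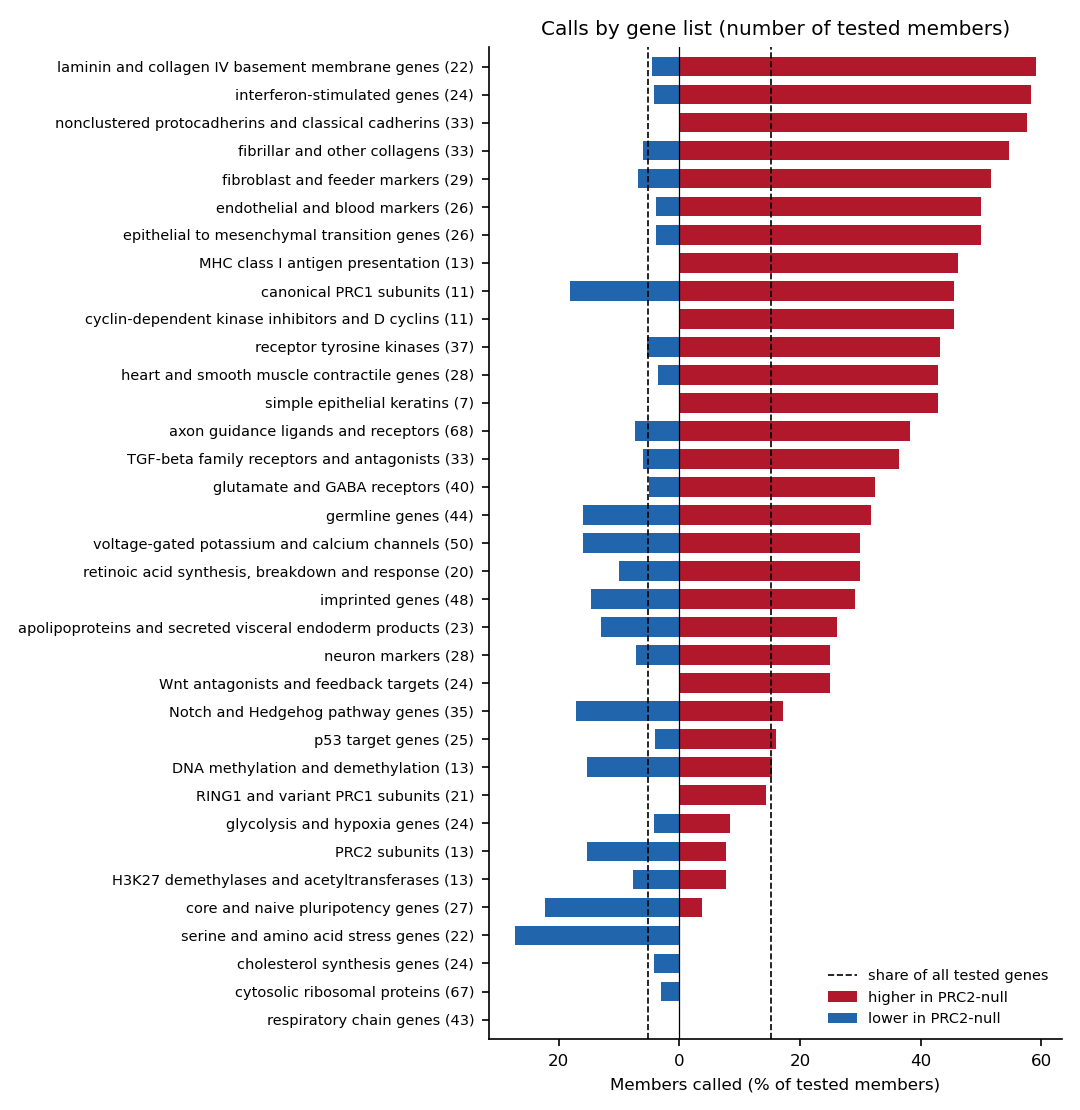
Share of tested members called lower (left of 0) and higher (right of 0) in PRC2-null ESCs for 35 gene lists, in percent of tested members, whose number stands after each name. Dashed lines give the shares over all tested genes, 15.1% higher and 5.19% lower, which are not matched for wild-type level. Laminin and collagen IV genes have the longest bar to the right and serine and amino acid stress genes to the left.

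Over the 35 gene lists, 976 distinct members were tested, of which 274 rose and 78 fell. The lists share members, and the counts below stand beside the 15.1% and 5.19% of all tested genes. Those shares are not matched for wild-type level. Under 10 counts 27.3% of genes rose, between 10 and 100 counts 29.7%, from 100 to 1000 counts 9.45% and from 1000 counts 2.10%. A list of weakly transcribed genes can therefore exceed 15.1% through its level. A level of at least 100 counts was held by 11 of 40 glutamate and GABA receptor genes and 15 of 28 neuron markers.

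Imprinted genes, which are expressed from 1 parental copy, moved strongly in both directions. Of 48 tested, 14 rose and 7 fell, and the median was 0.06. The maternally expressed noncoding RNAs of the Dlk1-Dio3 region on chromosome 12 fell together. Meg3 went from 710.1 to 3.16 (-7.02 ± 0.36), Rian from 1356 to 14.0 (-6.35 ± 0.24) and Mirg from 121 to 1.35 (-5.48 ± 0.43). In PRC1-null ESCs they stood at 482, 1021 and 82.5. The protein-coding genes of the same region, which come from the paternal copy, rose. Dlk1 went from 24.1 to 75.6 (1.57 ± 0.22) and Dio3 from 8.46 to 58.5 (2.57 ± 0.30). In PRC1-null ESCs Dlk1 had a log2 fold change of 2.90 ± 0.22 and Dio3 of 2.76 ± 0.30. Mest, a paternally expressed gene on chromosome 6, fell from 611 to 9.48 (-4.85 ± 0.50) and was at 646 in PRC1-null and 13.0 in PRC1/2-null ESCs. As for Pcdh9, the values of these noncoding RNAs and of Mest were alike in both groups made from clone B4 and in both groups of the parent line.

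Other imprinted domains gained RNA. The noncoding RNA that overlaps the Igf2r gene, Airn, rose from 682 to 7658 (3.40 ± 0.20), and Slc22a3 in the same domain from 3.77 to 46.3 (3.08 ± 0.42). Igf2r had a level of 4098 in wild type and 8018 in PRC2-null ESCs, a log2 fold change of 0.96 ± 0.09 that stayed just under the fold threshold and passed it, at 1.04, when values were centred on other genes. Airn and Igf2r lie on opposite strands, and whether the counting used strand is not given in the sources used here, so their reads may not be fully separated. The fetal growth factor Igf2 went from 138 to 5204 (4.86 ± 0.33), and H19, its neighbour on chromosome 7, from 1.52 to 99.3 (4.92 ± 0.41). Sfmbt2, a Polycomb-related gene of the placenta, rose from 1624 to 21526 (3.66 ± 0.17), Ndn by 2.30 ± 0.18 and Peg10 from 4317 to 14900.1 (1.76 ± 0.16). In the Kcnq1 domain, Cdkn1c (1.67 ± 0.33) and Ascl2 (2.17 ± 0.29) rose, Phlda2 had -0.41 ± 0.20 and the noncoding Kcnq1ot1 had -0.49 ± 0.15. Zdbf2 (-1.05 ± 0.11, or -0.97 and not called with that centring) and Usp29 (-1.55 ± 0.22) fell.

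**Figure D5:**
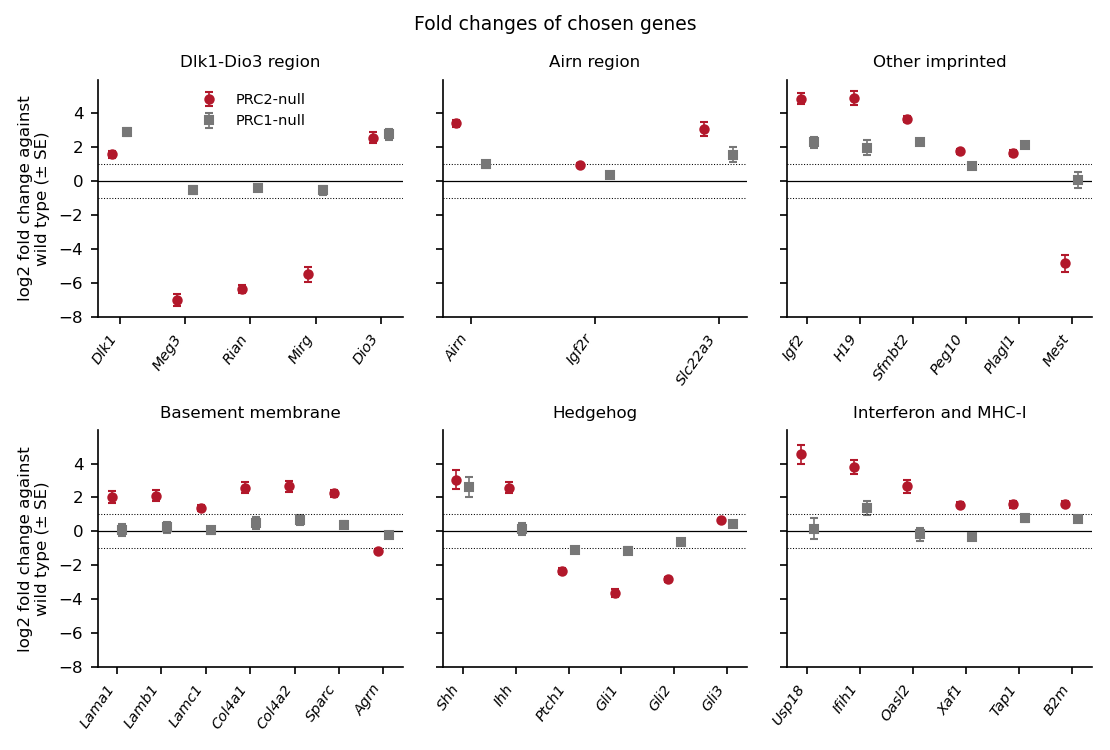
Log2 fold change against wild type with its SE for imprinted, basement membrane, Hedgehog, interferon and MHC class I genes in PRC2-null (circles) and PRC1-null ESCs (squares). Dotted lines mark a fold change of 2. The genes were picked after their values were seen. Meg3, Rian, Mirg and Mest lie below -4 in PRC2-null and between -1 and 0.1 in PRC1-null ESCs.

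Genes of the extracellular matrix rose in number and at high levels. Of 22 laminin, collagen IV and related basement membrane genes, 13 rose and 1 fell, with a median log2 fold change of 1.20. Basement membrane is the sheet on which epithelia sit, and primitive endoderm derivatives of the embryo secrete it. The chains of laminin-111 all rose. Lama1 went from 19015 to 87513 (2.02 ± 0.36), Lamb1 from 10563 to 50228 (2.10 ± 0.32) and Lamc1 from 32956 to 87951 (1.38 ± 0.20). The paired collagen IV genes Col4a1 (9791 to 67380.5, 2.59 ± 0.33) and Col4a2 (5420.3 to 39068, 2.67 ± 0.32) rose by a like amount. In PRC1-null ESCs 9 of the 22 were called higher and none lower, with a median of 0.57. In PRC1-null ESCs Lama1 stood at 0.09 ± 0.36, Lamc1 at 0.07 ± 0.20 and Col4a1 at 0.49 ± 0.33, none of them called. Lama4 (2.76 ± 0.18) and Col4a5 (2.26 ± 0.21) rose from lower levels, and in PRC1-null ESCs stood at 1.66 and 1.58 on the log2 scale. Agrn, a heparan sulfate proteoglycan of the same sheet, fell by 1.15 ± 0.13 on the log2 scale, and Hspg2, which encodes perlecan, had -0.08 ± 0.16. The summed level of the list went from 138179 in wild type to 412920 in PRC2-null ESCs.

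Of 33 other collagen genes, 18 rose and 2 fell, with a median of 1.28. Col12a1 rose by 3.92 ± 0.27, Col11a1 from 349 to 2013 (2.48 ± 0.18) and Col5a1 from 313 to 1336 (2.05 ± 0.17). Col18a1, the precursor of endostatin, fell from 12502 to 2337 (-2.37 ± 0.19) and Col9a2 from 231 to 67.7 (-1.73 ± 0.18). Their summed level fell from 15777 to 11386, because Col18a1 made up most of it in wild type. The count of rising members and the summed level thus had opposite signs.

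Cell adhesion and cell shape genes showed the same lean toward increases. Of 33 nonclustered protocadherins and classical cadherins, 19 rose and none fell, with a median of 1.21. Besides Pcdh9, these included Cdh11 (22.5 to 284, 3.48 ± 0.25), Pcdh19 (93.5 to 520.2, 2.41 ± 0.20) and Cdh13 (820.4 to 4345, 2.34 ± 0.21). Of 26 genes of the epithelial to mesenchymal transition, 13 rose and 1 fell. The mesenchymal genes Snai1 (25.7 to 165, 2.56 ± 0.26) and Vim (157 to 702, 2.10 ± 0.21) rose, and so did Itgb6 (13.5 to 130.0, 3.06 ± 0.31), an integrin chain of epithelia. Epithelial members also rose, among them the tight junction gene Cldn3 (2.10 ± 0.30) and the splicing regulator Esrp2 (1.34 ± 0.15). The epithelial cadherin gene Cdh1 had -0.32 ± 0.12, and Fn1, encoding fibronectin, fell from 42602 to 12322. Of 7 tested keratins of simple epithelia, 3 rose, namely Krt19 (4.02 ± 0.24), Krt7 (61.3 to 561, 3.04 ± 0.27) and Krt23 (5.63 to 106, 3.79 ± 0.40). Members of both cell states were among the genes that rose.

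Receptors and ligands of the nervous system and vessels came next. Of 68 axon guidance genes, 26 rose and 5 fell. Sema6d went from 70.7 to 1388 (3.99 ± 0.33), the semaphorin co-receptor Nrp1 from 59.7 to 736 (3.54 ± 0.19) and Sema5a from 809 to 4297 (2.38 ± 0.13). Sema5b (-1.91 ± 0.13) and Sema4b (-1.12 ± 0.09) fell. PRC1-null ESCs had 26 of the 68 called higher and none lower, with Sema5a at 4496 counts. Of 37 receptor tyrosine kinases, 16 rose and 2 fell. Ddr2, a collagen receptor, went from 56.4 to 754 (3.57 ± 0.27), Met, the receptor of hepatocyte growth factor, from 232 to 856 (1.85 ± 0.15), and Csf1r, the receptor of macrophages, from 3.62 to 102 (4.31 ± 0.38). The Wnt receptors Ror2 (7876 to 2884, -1.44 ± 0.09) and Ptk7 (4252 to 1591, -1.40 ± 0.14) fell. Both genes that fell belong to the noncanonical Wnt branch. Ror1 moved the other way, with a log2 fold change of 0.98 that was not called. It was 1.06 and called higher when values were centred on other genes.

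Ion channels split more evenly. Of 50 voltage-gated potassium and calcium channel genes, 15 rose and 8 fell. Kcnq5 went from 3025 to 31178 (3.30 ± 0.17) and Kcnb2 from 53.7 to 586 (3.36 ± 0.19). Cacna1c (2.41 ± 0.19) and Cacna1g (2.71 ± 0.25), pore subunits of calcium channels, rose as well. The related potassium channel gene Kcnq3 fell from 701 to 144 (-2.21 ± 0.23). The PRC1-null comparison called 25 of these 50 genes higher and 2 lower, with Cacna1c at 1113 counts. Of 40 glutamate and GABA receptor genes, 13 rose and 2 fell. Grin3a went from 36.5 to 862 (4.37 ± 0.25), Grin2a from 82.6 to 473 (2.45 ± 0.19) and Grm8 from 148 to 606 (2.01 ± 0.13). Grik5 (-1.25 ± 0.17) and Gabbr1 (3732 to 1661, -1.15 ± 0.15) fell. For these 40 genes the PRC1-null comparison gave 16 higher and none lower, with Grin2a at 918 counts.

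In the Hedgehog pathway the ligand genes rose from low levels, while the target genes Gli1 and Ptch1 fell. Hedgehog ligands bind PTCH1, which frees SMO and leads to GLI activity, and Gli1 and Ptch1 are themselves switched on by the pathway. Shh went from 0.189 to 11.5 (3.05 ± 0.57), Ihh from 22.4 to 152 (2.58 ± 0.32) and Dhh from 7.49 to 20.2 (1.25 ± 0.39). Gli2 fell from 18035 to 2475 (-2.83 ± 0.14), Gli1 from 723 to 54.4 (-3.62 ± 0.22) and Ptch1 from 5737 to 1120.0 (-2.31 ± 0.18). Smo (-0.56 ± 0.15), Sufu (0.08 ± 0.12) and Gli3 (0.66 ± 0.09) were not called. In PRC1-null ESCs Gli1 had -1.15, Gli2 -0.65 and Ptch1 -1.07 on the log2 scale. Counted with the Notch genes, 6 of 35 members rose and 6 fell. The Notch target genes Hey2 (2.20 ± 0.30) and Hey1 (2.17 ± 0.37) and the Hedgehog co-receptor Boc (1.41 ± 0.18) were among the rises.

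Some secreted antagonists of the Wnt and TGF-beta pathways rose. Of 24 Wnt antagonists and feedback targets, 6 rose (25%) and none fell. A wild-type level of at least 100 counts was held by 12 of the 24, and 5 were under 10. Among all genes 27.3% rose under 10 counts and 29.7% between 10 and 100, so this count is not set apart from its level. Frzb went from 3.00 to 144 (4.97 ± 0.36), Dkk1 from 25.3 to 135 (1.99 ± 0.49), Wif1 from 6.55 to 29.9 (1.95 ± 0.37) and the feedback target Axin2 from 71.8 to 486 (2.69 ± 0.19). Of 33 receptors and antagonists of the TGF-beta family, 12 rose and 2 fell. Nog, a BMP antagonist, went from 18.4 to 185 (3.05 ± 0.37) and was at 12.8 in PRC1-null ESCs, and Tgfbr3 (256 to 1686, 2.66 ± 0.19) and Tgfbr2 (565 to 1563, 1.44 ± 0.17) rose too. Chrd, another BMP antagonist, fell from 102 to 32.6 (-1.58 ± 0.24), and the co-receptor Eng fell from 664 to 200.4 (-1.69 ± 0.19). Antagonists of BMP signalling therefore did not all move the same way.

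Retinoic acid genes included some of the sharpest contrasts. Of 20 tested, 6 rose and 2 fell. Stra6, the uptake receptor for retinol, went from 44.7 to 1394 (4.60 ± 0.34) and Cyp26a1, which breaks retinoic acid down, from 11.6 to 382 (4.41 ± 0.41). The synthesis enzyme Aldh1a3 (1.76 ± 0.28) rose. Stra8, which retinoic acid induces in germ cells, fell from 251 to 20.2 (-3.48 ± 0.26), and the receptor Rara fell from 992 to 471 (-1.07 ± 0.11). Stra6 was at 52.1 in PRC1-null ESCs.

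Interferon-stimulated genes were higher in PRC2-null ESCs, with 14 of 24 rising, 1 falling and a median of 1.23. Of the 24, 8 had a wild-type level under 10 counts and 8 of at least 100. The RNA sensor Ifih1 went from 9.28 to 193 (3.80 ± 0.41), Oasl2 from 30.5 to 232 (2.66 ± 0.37) and Usp18, a brake on interferon signalling, from 0.515 to 95.9 (4.55 ± 0.56). Xaf1 rose from 219 to 665 (1.57 ± 0.16). Ifitm1 fell from 243 to 82.0 (-1.49 ± 0.28). In PRC1-null ESCs the median of these 24 genes was -0.26, with 1 called higher and 1 lower. In PRC1/2-null ESCs Usp18 reached 287 and Oasl2 739. Of 13 tested genes of MHC class I antigen presentation, 6 rose and none fell. They were B2m (222 to 704, 1.64 ± 0.16), the peptide transporter genes Tap1 (173 to 539.9, 1.60 ± 0.20) and Tap2 (45.7 to 154, 1.70 ± 0.20), H2-M3 (1.41 ± 0.25) and the immunoproteasome genes Psmb8 (1.58 ± 0.39) and Psmb9 (1.32 ± 0.27). The other 10 listed MHC genes had no entry, and the reads of such near-identical genes are uncertain.

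Of 11 tested inhibitors of cyclin-dependent kinases and D cyclins, 5 rose and none fell. Ccnd2, a cyclin that drives entry into S phase, went from 264 to 3816 (3.78 ± 0.18). The inhibitors Cdkn2a (118 to 319, 1.42 ± 0.13) and Cdkn2b (7.39 to 50.9, 2.53 ± 0.34) rose together at their shared locus. Of 25 p53 target genes, 4 rose and 1 fell, or 16% and 4%, against 15.1% and 5.19% of all genes. Fas (10.8 to 52.7), Pmaip1 (651 to 1549.7), Plk2 (694 to 1501) and Btg2 (831 to 1879) rose and Gdf15 fell (35.5 to 12.6). Cdkn1a, the best known target, had 0.51 ± 0.15.

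Germline genes went both ways, with 14 of 44 higher and 7 lower. Genes for structural proteins of meiotic chromosomes were split. Sycp1 (541 to 1842, 1.73 ± 0.18) and Sycp2 (177 to 609, 1.75 ± 0.17) rose, while Sycp3 fell from 198 to 23.3 (-2.91 ± 0.30). Tdrd7 (101 to 679, 2.70 ± 0.17) and Tex15 (529.7 to 1637, 1.62 ± 0.11) rose, and Piwil4, a piRNA-binding protein, fell from 277 to 57.9 (-2.21 ± 0.19). In PRC1-null ESCs 22 of these genes were higher and none lower, and Sycp3 had 0.12 and Piwil4 0.07 on the log2 scale.

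Markers of other cell types were read because a culture can hold differentiated cells. In bulk RNA, a change in the number of cells of a type and a change in RNA per cell cannot be told apart. Of 26 endothelial and blood markers, 13 rose and 1 fell, and their summed level went from 4553 to 14364. Most of that gain came from 1 member, Flt1, which went from 157 to 6195. Cdh5, the cadherin of endothelium, rose to 708 counts (3.82 ± 0.38), Fli1 from 7.24 to 134 (3.85 ± 0.31) and Gata2 from 17.2 to 239.6 (3.53 ± 0.31). Pecam1, which ESCs also express, had -0.40 ± 0.20, and Sox18 fell from 5.71 to 1.13. Of 29 fibroblast and feeder markers, 15 rose and 2 fell, yet the summed level went from 45084 to 20233 because Fn1 carried most of it. Fbn1 rose from 249.6 to 1132 (2.15 ± 0.15) and Cd44 by 4.54 ± 0.18 on the log2 scale. Col1a1 had 30.9 and 39.3 counts (adjusted p = 0.241), and Mmp14 fell by 1.03 ± 0.18. Of the 29, 16 are also on another list.

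Of 28 heart and smooth muscle genes, 12 rose and 1 fell. Besides Myh7, Myl9 went from 10.3 to 168 (3.78 ± 0.28), Myh6 from 23.5 to 119.8 (2.24 ± 0.25) and Tpm1 from 924 to 2439 (1.38 ± 0.15), while Ttn, the giant spring protein of muscle, fell from 2157 to 709 (-1.49 ± 0.34). Of 28 neuron markers, 7 rose and 2 fell. L1cam (46.6 to 251, 2.36 ± 0.21), Nrxn3 (16.4 to 149, 2.96 ± 0.32), Nefl (1.40 ± 0.17) and Nefh (1.36 ± 0.16) rose, Elavl3 (-1.24 ± 0.24) and Ina (-1.03 ± 0.28) fell, and Map2 had 0.13 ± 0.20. Of 23 genes for apolipoproteins and other products of visceral endoderm, 6 rose and 3 fell. Lrp2 (5109 to 11919.6, 1.17 ± 0.26), Dab2 (1022 to 3175, 1.56 ± 0.27), Ctsh (1.75 ± 0.19) and Rbp4 (1.35 ± 0.24) rose, while Apoe (-2.31 ± 0.22) and Trf (287 to 76.5, -1.84 ± 0.25) fell. The defining product Afp stood at 0.989 in wild type and 7.53 in PRC2-null ESCs. The part of such cells in the results above was not tested.

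Of 27 pluripotency genes, 6 fell and 1 rose, with a median of -0.69. Nr0b1 (833 to 181, -2.17 ± 0.18), Fgf4 (3263 to 1081, -1.55 ± 0.21), Sox2 (3530.0 to 1536, -1.18 ± 0.17) and Esrrb (9557 to 4462, -1.09 ± 0.14) fell, and Lefty2 rose by 1.42 ± 0.54. Pou5f1 (2149 and 1294 counts, -0.72 ± 0.15), Nanog (1989 and 2514, 0.32 ± 0.29) and Klf4 (-0.38 ± 0.14) were not called.

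Metabolic and ribosomal groups had few increases, as did well transcribed genes in general. All 67 ribosomal protein genes, all 43 respiratory chain genes and 23 of 24 cholesterol synthesis genes had wild-type levels of at least 100 counts. So did 20 of 22 serine and amino acid stress genes and 20 of 24 glycolysis and hypoxia genes. From 100 to 1000 counts 9.45% of all tested genes rose, and from 1000 counts 2.10%. None of 43 respiratory chain genes was called, and their median was -0.02, with 5 higher and 11 lower by the DESeq2 Wald test without the fold threshold. Of 67 cytosolic ribosomal protein genes none rose and 2 fell, Rpl9 (962 to 441, -1.11 ± 0.17) and Rpl35a (1169 to 559, -1.06 ± 0.12), but the median of the group was -0.42 and 52 members were lower without the fold threshold. Of 22 genes of serine synthesis and the amino acid stress response, none rose and 6 (27.3%) fell, with a median of -0.77. Chac1 (185 to 46.4, -1.90 ± 0.28), Atf5 (132 to 49.6, -1.37 ± 0.20), Trib3 (441 to 184, -1.23 ± 0.19) and Mthfd2 (927 to 444, -1.05 ± 0.12) fell, and the transcription factor Atf4, which drives many of them, had -0.43 ± 0.10. Of 24 glycolysis and hypoxia genes, 2 rose and 1 fell, Ndrg1 (74.0 to 877, 3.21 ± 0.38) and Ankrd37 (1.19 ± 0.34) against Pdk1 (2477 to 743, -1.70 ± 0.19). Of 24 cholesterol synthesis genes, none rose and 1 fell, and the median was -0.25.

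Called genes also lay side by side. Runs of at least 4 neighbouring tested genes called in the same direction numbered 42 for increases, with 189 genes, and 3 for decreases, with 13 genes. With 15.1% of tested genes called higher and 5.19% lower, a random order would also give more runs of increases. The number to be had from a random order was not worked out. Overlapping genes on opposite strands, such as Nphs1 and Nphs1os, count as separate neighbours. The longest was Pcdhb14 to Pcdhb22, 9 genes of the clustered protocadherins on chromosome 18 within 73.8 kb. Their log2 fold changes ran from 1.35 to 3.56, from wild-type levels that were all under 5 counts. The genes are near-identical copies, so reads may be split between them. Pcdhb16 went from 2.52 to 47.4 (3.56 ± 0.43) and Pcdhb22 from 2.96 to 47.8 (3.49 ± 0.39), while in PRC1-null ESCs they stood at 6.78 and 8.06. Pcdhb14 (1.53 ± 0.47), Pcdhb15 (3.17 ± 0.55), Pcdhb17 (2.86 ± 0.53), Pcdhb18 (1.35 ± 0.43), Pcdhb19 (1.87 ± 0.52), Pcdhb20 (2.54 ± 0.58) and Pcdhb21 (1.79 ± 0.64) lay between or below them. A run of 7 genes covered the HoxC cluster from Hoxc11 to Hoxc4, with log2 fold changes between 2.25 and 3.44. Another of 7 covered posterior HoxA genes and noncoding RNAs from Mira to Hoxa13, between 1.38 and 2.87. Hoxa10 went from 6.97 to 64.1 and Hoxc9 from 3.50 to 57.0, which set them against the loss of Halr1 at the other end of HoxA. Both Hox genes were higher still in PRC1-null ESCs, Hoxa10 at 131 and Hoxc9 at 69.6. A run of 6 genes on chromosome 7 spread over 2014 kb, with Fam174b (2.33 ± 0.20), Slco3a1 (741 to 3156, 2.07 ± 0.14), Sv2b (1.92 ± 0.38), St8sia2 (1.68 ± 0.30), Gm21269 (1.68 ± 0.65) and Akap13 (4967 to 10991, 1.14 ± 0.09). The largest run of decreases, 5 genes from Nfkbid to Nphs1os on chromosome 7, spanned 66.9 kb and had a median of -2.75.

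Promoter sequence was compared between called and other genes only in part. RefSeq windows matched 78.8% of tested genes, 75.7% of genes that rose and 77.8% of genes that fell, which is under the 80% set for such a comparison, so no comparison was made. The first 300 bases of the transcript, an alternative chosen after seeing the data, were found for 98.6% of tested genes. Among genes with a wild-type level under 100 counts, the median number of CpGs in these bases was 13 (quartiles 7 and 23) for those that rose, 8 (5 and 13) for those that fell and 9 (5 and 17) for those not called. Among genes at 100 counts or more, it was 22 (14 and 32), 17 (10 and 28) and 21 (14 and 30). Under 100 counts genes that rose had more CpGs in the first bases of the transcript than genes that did not, with wide overlap of the quartiles. Level within this bin was not matched. CpG number also went with level, with a median of 10 over all tested genes under 100 counts and 21 from 100 counts.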

How the data were processed

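Nuclear RNA was sequenced from 4 libraries per group. Per the labels and the study's methods, the authors removed ribosomal reads with Bowtie 2, aligned the rest to mm10 with STAR, removed duplicates with SAMtools and ran DESeq2 on a nonredundant gene set. Versions are not given in the sources used here. The deposited tables hold the mean signal over all libraries (mean normalized counts), a moderated and an unshrunken log2 fold change with its SE, the Wald score, and the p-value with its adjusted form. These are columns of the authors' own comparison, which this report describes because no counts per library were used here. Depth per library is therefore unknown, and no interval from counting is given. The median SE was 0.12 at a mean of at least 100 counts and 0.60 under 10.

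Of 20633 entries, 20450 were named from RefSeq (GRCm38.p6) and 110 from GENCODE, and 19338 genes had 1 entry kept, that with the highest mean. The 2045 entries with no adjusted p had a mean of at most 0.779. A call needed an adjusted p below 0.05 and more than a 2-fold difference. Group levels came from the mean and the 3 unshrunken fold changes. Genes were named by a rule: Eed, Rnf2, Ring1, Pcdh9, all Polycomb members, the 15 largest rises and falls, up to 4 and 2 members per list by adjusted p, the largest switches, the longest runs and the highest chromosome 11 genes. Other list members and genes were named after their values were seen. The gene lists and members were chosen with earlier results of these data known. The call rule was tested on simulated fold changes of 17330 genes for PRC2-null against wild type. True changes were placed only in genes with a mean of at least 100 counts. The rule called 98% of 100 changes of 1.5 and 100% of 100 changes of 3 on the log2 scale, with 3 false calls. Noise was drawn from the SE of each gene and tested against that same SE. The simulation therefore checks the working of the rule and does not measure the error rate of the real calls. Recovery of changes in genes with lower means was not tested. Alternatives were other thresholds, mean limits, the unshrunken fold change, centring, and lowering chromosome 11. Software was pandas 2.3.3 and numpy 2.4.6 under Python 3.11.15, with figures from matplotlib 3.10.9 and p-values from scipy 1.17.1. Some members of the gene lists are not reported here.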

Additional observations from a re-analysis of the deposited data

How the results depend on the processing

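Without the fold threshold 5473 entries were higher and 4818 lower, and 269 list members were lower. With a fold over 4 these counts were 1146 and 156, with 125 list members higher and 16 lower. With a mean of at least 100 counts only, 1419 entries were higher and 594 lower, with 160 list members higher. Under a Wald test of a fold beyond 2, 1329 and 303 entries and 148 and 29 list members were called. These settings change the number of genes by their own construction. The share of increases among called entries was 74.6%, 53.2% without the fold threshold, 88.0% with a fold over 4 and 81.4% under the test beyond 2. An adjusted p under 0.01, a mean of at least 10 counts, the unshrunken fold change, centring on well-measured entries outside chromosome 11, lowering chromosome 11 by its excess and 1 entry per gene kept both counts of entries and both counts of list members within 1.5 times. The excess of chromosome 11 over other chromosomes (0.47) was 0.45 at a mean of at least 10, 0.53 at a mean of at least 1000 and 0.43 over genes not called, and the cause was not tested. Genes going from off to on numbered 12 with off under 5 counts and 145 with on from 50 counts, and those going from on to off 4 and 12. Of the genes chosen by the naming rule, no called gene changed direction under these settings. None could have, since a call needed a fold over 2 and the shifts applied were smaller. Changes of sign in genes not called were not counted. Among all genes named in the text, centring, by -0.08, took the calls of Jmjd1c, Rara, Sox18, Ina, Mmp14, Mthfd2, Rpl35a and Zdbf2. It added Lcor, Igf2r and Ror1 as higher. An adjusted p under 0.01 took those of Sox18, Lefty2, Pcdhb21 and Gm21269. Lowering chromosome 11 took the calls of Epop, Cbx2 and Nefh and added Ranbp17 and Msi2 as lower. No paired analysis was possible because the tables hold no values per library, so the replicate block and leaving out each library in turn were not run.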

Other observations

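Sex-linked genes not covered above also differed between the groups. Of 5 Y-linked genes with a test, 3 were higher in PRC2-null ESCs, namely Uty, the translation factor Ddx3y (5.52 to 50.1 counts, 2.83 ± 0.41) and the demethylase Kdm5d (0.901 to 10.3, 2.34 ± 0.58). Eif2s3y had 4.37 and 6.38 counts and was not called, and neither was Usp9y. In PRC1-null ESCs Uty was at 22.5 and Ddx3y at 3.53, and in PRC1/2-null ESCs they were at 193 and 41.6. Xist, the RNA that silences an X chromosome, went from 22.2 to 60.4 (1.32 ± 0.37), and its antisense partner Tsix from 3802 to 1378 (-1.43 ± 0.19). Xist and Tsix overlap, and their reads may not be fully separated. These genes were chosen after their values were seen.

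Among the 43 genes that went from off to on, further members chosen after their values were seen were the water channel Aqp1 (4.91 to 199, 4.77), the granulocyte receptor Csf3r (3.94 to 104, 4.21), the endocrine regulator Rfx6 (8.95 to 139, 3.70), the ventricular light chain Myl3 (7.90 to 164, 3.59) and the hindlimb regulator Pitx1 (5.56 to 168, 4.39), given as counts in wild type and PRC2-null ESCs and the log2 fold change. Of these, Pitx1 reached 129 in PRC1-null ESCs and the others 25.9 or less.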
